A study of Mus musculus with 6 samples.

Results

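The genes described here encode the machinery that breaks down fatty acids by beta oxidation: 34 genes, of which 32 had at least 1 probe set annotated with that gene symbol alone, among 18193 genes measured in that way. They were chosen as members of the pathway, with earlier results of these data known. Acsl1 had no probe set annotated with it alone, and the probe set annotated with Cpt1b also named other genes, so neither was analysed here. Expression was measured on Affymetrix mouse whole-genome arrays. The samples were endothelial cells that had migrated into Matrigel, a gel rich in basement membrane proteins, implanted intraperitoneally in mice of the Balb/c nude background, which lack mature T cells. In the MFAP5 group (3 arrays) the gel had been mixed with recombinant microfibrillar-associated protein 5, a secreted protein of elastic microfibrils. In the Control group (3 arrays) the gel lacked that protein, and all else the labels give was shared. The sources used here do not give the dose, the time in the animal, the animals' age or how the endothelial cells were separated from other cells.

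Beta oxidation shortens a fatty acid stepwise into acetyl-CoA. Long chains are first activated to acyl-CoA, carried into mitochondria by the carnitine shuttle and then cut by a cycle of dehydrogenation, hydration, a further dehydrogenation and thiolysis, with electrons passed on through the electron transfer flavoprotein. Peroxisomes run a parallel cycle on very long and branched chains with their own enzymes. Endothelial cells use fatty acid oxidation in part for biosynthesis and redox balance, and adipose tissue, heart and muscle express the mitochondrial enzymes strongly.

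Each deposited value was a log signal centred on the median of its probe set over the 6 arrays, so a value shows how far an array lay from that median and carries no absolute level. The log base was taken as 2, which the sources do not state. A difference is MFAP5 minus Control, tested with limma over all 18193 genes and adjusted by the Benjamini-Hochberg method, and a gene is said to have fallen or risen where its adjusted p was under 0.05. The design text speaks of independent samples but not of separate animals, so the p-values measure the spread between these samples, which may be technical. In a bulk sample of this kind, fewer cells of a type and less RNA per cell cannot be told apart. Control replicate 1 stood apart from the other Control arrays in these centred values. Over all genes Control replicates 2 and 3 correlated at 0.70, but replicate 1 correlated with them at only 0.046 and 0.10. The MFAP5 arrays correlated with each other at 0.48, 0.33 and 0.25. In the mean signal of the spike-in transcripts, Control replicates 2 and 3 lay at 0.64 and 0.65 and the other arrays between -0.32 and -0.01. Results are therefore also given below with single arrays left out. As a sign of RNA quality, the difference between the 3′ and 5′ control probe sets of actin was 0.144, 0.082 and 0.036 in MFAP5 replicates 1, 2 and 3 and -0.0048, -0.053 and -0.032 in Control replicates 1, 2 and 3, so the groups did not overlap. That of Gapdh was 0.086, -0.038 and 0.034 in the MFAP5 arrays and -0.16, 0.033 and -0.033 in the Control arrays, which overlapped. Because each control probe set was centred too, these differences only compare arrays with each other and give no absolute ratio of 3′ to 5′ signal. The part of RNA quality in the results was not tested.

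Of the 32 measured genes 12 fell and none rose with MFAP5. Over all genes 2.79% fell and 0.759% rose, 3.55% in either direction. At an unadjusted p under 0.05 in limma 20 of the 32 were lower and none higher, against 14.4% and 5.33% of all genes. In 29 of the 32 the mean was lower with MFAP5, against 65.6% of all genes, and in 21 the 3 MFAP5 values all lay below the 3 Control values, against 17.8% of all genes, and in none did all MFAP5 values lie above, against 6.51%. The median log2 difference of the 32 genes was -0.37, and that of all genes was -0.08. The 12 that fell were Acadvl, Acadm, Acads, Hadh, Echs1, Acaa2, Eci1, Decr1, Etfa and Etfb, whose products act in mitochondria, and Hacl1 and Pex11a of peroxisomes. Their limma adjusted p lay between 0.00134 and 0.0487.

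**Figure D1:**
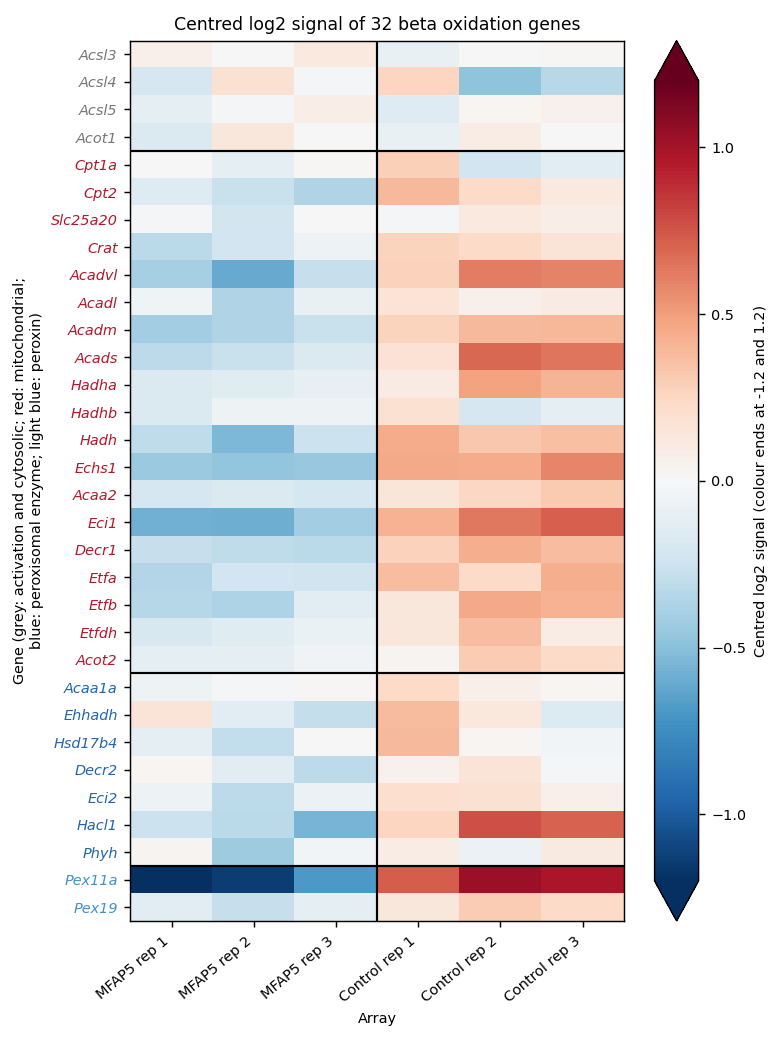
Centred log2 signal of the 32 measured beta oxidation genes (rows) in the 3 MFAP5 arrays (left) and the 3 Control arrays (right); blue is below and red above the median of the probe sets, and horizontal lines separate activation and cytosolic genes, mitochondrial genes, peroxisomal enzymes and peroxins. The rows of Echs1, Eci1 and Pex11a are blue in all MFAP5 arrays and red in all Control arrays, while those of Acsl3, Acsl4, Acsl5 and Acot1 show no such split.

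The cycle begins with the acyl-CoA dehydrogenases, each working on a range of chain lengths, and 3 of the 4 fell. Acadvl, the very long chain enzyme, had values of -0.40, -0.60 and -0.28 in MFAP5 replicates 1, 2 and 3, against 0.28, 0.62 and 0.59 in Control replicates 1, 2 and 3. Its log2 difference was -0.92 ± 0.13 (SE, n = 3 each; limma adjusted p = 0.00840), a signal 1.90-fold lower with MFAP5. Acadm, the medium chain enzyme, stood at -0.42, -0.36 and -0.27 in the MFAP5 arrays and at 0.27, 0.39 and 0.40 in the Control arrays. The groups of both genes were well apart, and Acadm differed by -0.70 ± 0.098 (SE; limma adjusted p = 0.00700). For Acads, the short chain enzyme, the MFAP5 arrays had -0.31, -0.27 and -0.17, and the Control arrays 0.17, 0.69 and 0.64. Control replicate 1 was the lowest of the Control arrays for this gene, and the difference was -0.75 ± 0.15 (SE; limma adjusted p = 0.0308). Acadl, the long chain enzyme, did not pass: its difference was -0.28 ± 0.11 (SE; limma adjusted p = 0.229), although its groups did not overlap.

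Electrons from these dehydrogenases pass to the electron transfer flavoprotein, a dimer of the Etfa and Etfb products, and on to the ubiquinone oxidoreductase encoded by Etfdh. Etfa had values of -0.35, -0.23 and -0.24 in the MFAP5 arrays and 0.37, 0.23 and 0.44 in the Control arrays, a difference of -0.62 ± 0.10 (SE, n = 3 each; limma adjusted p = 0.0145). Etfb had -0.34, -0.37 and -0.13 with MFAP5, and 0.13, 0.46 and 0.42 in Control. Both subunits fell and neither overlapped between the groups, Etfb by 0.61 ± 0.12 on the log2 scale (SE; limma adjusted p = 0.0339). Etfdh missed the threshold as a gene, with a difference of -0.34 (limma adjusted p = 0.145). Of its 2 probe sets 1 fell, at -0.58 (limma adjusted p = 0.0450 over all probe sets), and the other gave -0.10.

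Of the 5 genes for the hydration step and those after it 3 fell. Echs1, the short chain enoyl-CoA hydratase, was the most even gene of the group: the MFAP5 arrays had -0.45, -0.47 and -0.46 and the Control arrays 0.45, 0.45 and 0.59. Its difference was -0.95 ± 0.095 (SE, n = 3 each; limma adjusted p = 0.00134), and the 3 MFAP5 arrays had an SD of 0.012. Hadh, the 3-hydroxyacyl-CoA dehydrogenase of short chains, had -0.30, -0.54 and -0.26 with MFAP5 and 0.44, 0.32 and 0.36 in Control, a difference of -0.74 ± 0.11 (SE; limma adjusted p = 0.00920). All 3 probe sets of Hadh were lower, at -1.06, -0.70 and -0.45. Acaa2, the mitochondrial thiolase of the last step, lay just inside the threshold: its MFAP5 values were -0.20, -0.17 and -0.21, its Control values 0.15, 0.24 and 0.32, and its difference was -0.43 ± 0.095 (SE; limma adjusted p = 0.0487). Its 3 probe sets gave -0.68, -0.32 and -0.29. Acaa2 missed the threshold with median centring (limma adjusted p = 0.0528) and without probe sets named _s_at, _x_at or _a_at (limma adjusted p = 0.216).

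Hadha and Hadhb encode the 2 subunits of the trifunctional protein, which carries out the steps after the first on long chains. Neither passed. Hadha had -0.17, -0.15 and -0.10 with MFAP5 and 0.10, 0.48 and 0.40 in Control, a difference of -0.47 ± 0.12 (SE, n = 3 each; limma adjusted p = 0.0761). The groups of Hadha did not overlap, whereas those of Hadhb did, at a difference of -0.06 ± 0.12 (SE; limma adjusted p = 0.826). The Hadhb mean joined 3 probe sets that disagreed, at -0.49, 0.04 and 0.28. In the last of these, whose suffix is _x_at, the MFAP5 arrays had 0.01, -0.00 and 0.00 and the Control arrays 0.65, -0.89 and -0.61, so that Control replicate 1 lay on the opposite side from the other two Control arrays. The difference of Hadhb was 0.06 without Control replicate 1, 0.01 with array weights and 0.28 with the probe set of largest SD.

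Unsaturated fatty acids need additional enzymes that move or reduce a double bond, and both mitochondrial ones fell. Eci1, an enoyl-CoA isomerase, had -0.58, -0.59 and -0.41 in the MFAP5 arrays and 0.41, 0.63 and 0.72 in the Control arrays. With a difference of -1.11 ± 0.12 (SE, n = 3 each; limma adjusted p = 0.00162) it was 2.16-fold lower, the lowest difference of the mitochondrial genes measured here. Decr1, the dienoyl-CoA reductase, had -0.28, -0.31 and -0.33 with MFAP5 and 0.28, 0.44 and 0.37 in Control, a difference of -0.66 ± 0.095 (SE; limma adjusted p = 0.00786). Its 2 probe sets agreed, at -0.70 and -0.63.

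The carnitine system carries long chains into the mitochondrion, and none of its 4 measured genes passed in the main test. Cpt2, the carnitine palmitoyltransferase of the inner membrane, lay just outside the threshold with -0.15, -0.27 and -0.36 in MFAP5 arrays and 0.39, 0.23 and 0.11 in Control arrays. Its difference was -0.50 ± 0.11 (SE, n = 3 each; limma adjusted p = 0.0511). Its probe set with the suffix _at gave -0.91 and that with _x_at gave -0.10. Cpt1a, the outer membrane enzyme that controls the rate of entry, had -0.00, -0.11 and 0.01 with MFAP5 and 0.29, -0.23 and -0.14 in Control. The Cpt1a groups overlapped, with a difference of -0.01 ± 0.14 (SE; limma adjusted p = 0.978), and this difference was positive in 5 of the alternatives given at the end. Crat, the carnitine acetyltransferase, and Slc25a20, the carnitine-acylcarnitine carrier, had differences of -0.42 and -0.15 (limma adjusted p = 0.0721 and 0.476).

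The acyl-CoA synthetases that activate fatty acids showed no called change as genes. Acsl3 had values of 0.06, 0.00 and 0.11 in the MFAP5 arrays and -0.09, -0.01 and 0.02 in the Control arrays, a difference of 0.09 ± 0.095 (SE, n = 3 each; limma adjusted p = 0.640). Its probe sets disagreed, and 1 of them rose by 0.57 (limma adjusted p = 0.0386 over all probe sets) while the others were at -0.14 and -0.18. Acsl4 differed by 0.18 and Acsl5 by 0.01 (limma adjusted p = 0.641 and 0.975). The thioesterases, which release free fatty acids from acyl-CoA, also missed the threshold. Acot1, the cytosolic form, had -0.17, 0.13 and 0.01 with MFAP5 and -0.09, 0.09 and -0.01 in Control, a difference of -0.00 ± 0.11 (SE; limma adjusted p = 0.988). Its mitochondrial paralog Acot2 had -0.12, -0.12 and -0.05 with MFAP5 and 0.03, 0.31 and 0.23 in Control, a difference of -0.28 ± 0.11 (SE; limma adjusted p = 0.198). The Acot2 groups lay apart and those of Acot1 overlapped, and the difference between the paralogs was not tested.

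**Figure D2:**
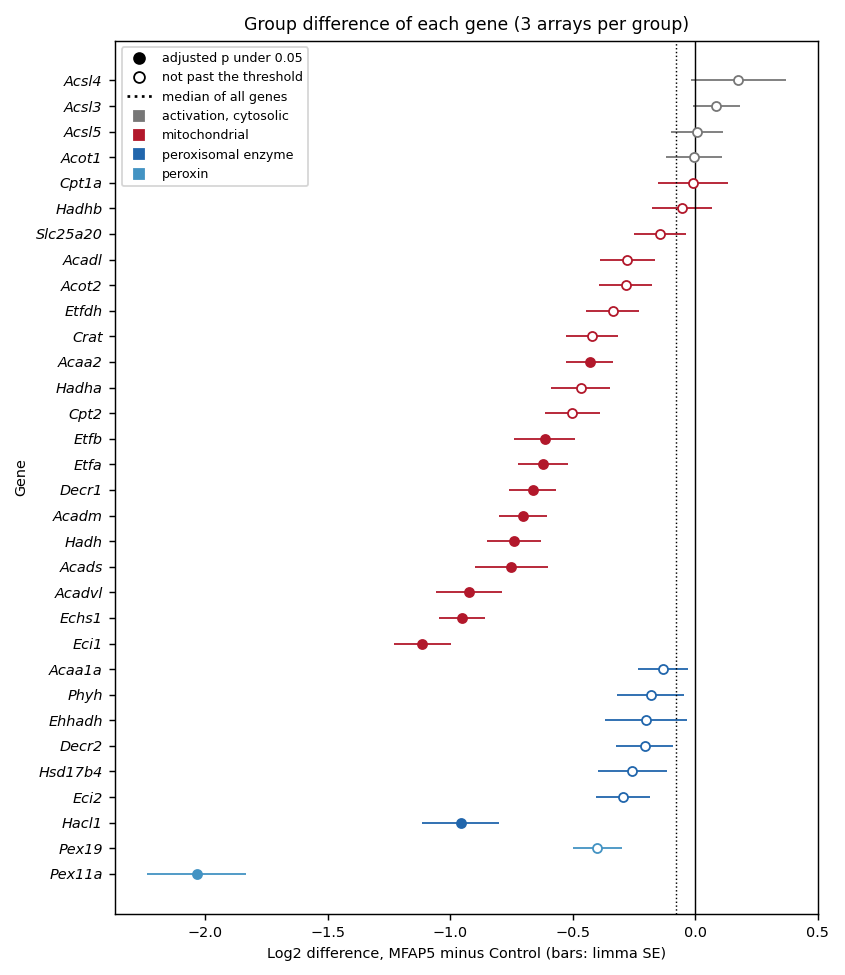
Log2 difference, MFAP5 minus Control, of each measured gene with its limma SE as a bar (3 arrays per group); filled points passed an adjusted p under 0.05, colours mark the compartment, and the dotted line is the median of all genes at -0.08. The filled red points run between -1.11 and -0.43, and in blue 6 of the 7 peroxisomal enzymes are open points between -0.30 and -0.13.

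Of the 7 peroxisomal enzymes 1 fell. Hacl1, a lyase that removes a single carbon from 2-hydroxy acyl-CoA in the alpha oxidation of branched chains, had -0.25, -0.33 and -0.55 in the MFAP5 arrays and 0.25, 0.78 and 0.71 in the Control arrays. It was 1.94-fold lower, with a difference of -0.96 ± 0.16 (SE, n = 3 each; limma adjusted p = 0.0144), and Control replicate 1 was the closest of the Control arrays to the MFAP5 group. Phyh, the hydroxylase that acts before Hacl1 in the same route, had 0.03, -0.43 and -0.03 with MFAP5 and 0.09, -0.07 and 0.10 in Control. Those groups overlapped, with a difference of -0.18 ± 0.14 (SE; limma adjusted p = 0.493).

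The peroxisomal beta oxidation enzymes themselves all missed the threshold, each with a lower mean with MFAP5. Ehhadh, a bifunctional hydratase and dehydrogenase, had 0.15, -0.13 and -0.28 in the MFAP5 arrays and 0.38, 0.13 and -0.17 in Control, a difference of -0.20 ± 0.17 (SE, n = 3 each; limma adjusted p = 0.529). Hsd17b4, the bifunctional enzyme for branched and very long chains, had -0.11, -0.29 and 0.01 with MFAP5 and 0.39, 0.02 and -0.03 in Control. Both genes overlapped between the groups, and the Hsd17b4 difference of -0.26 ± 0.14 (SE; limma adjusted p = 0.347) joined a probe set at -0.60 with one at 0.09. Eci2, an isomerase found in both organelles, differed by -0.30, Decr2, a dienoyl-CoA reductase, by -0.21 and Acaa1a, a thiolase, by -0.13 (limma adjusted p = 0.194, 0.364 and 0.507). Both probe sets of Acaa1a carry the suffix _x_at, which Affymetrix gives where some probes may also match other transcripts. The paralog Acaa1b, not among the 34 genes, had 1 probe set of its own at -2.71 ± 0.22 (SE; limma adjusted p = 6.40e-04).

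The lowest difference of the 32 genes was that of Pex11a, a membrane protein that promotes elongation and division of peroxisomes and not an oxidation enzyme. Its values were -1.54, -1.14 and -0.69 in MFAP5 replicates 1, 2 and 3 and 0.73, 1.04 and 0.98 in Control replicates 1, 2 and 3. The MFAP5 arrays differed among themselves more than the Control arrays did (SD 0.425 and 0.164), yet the groups lay far apart. It was 4.10-fold lower with MFAP5, with a difference of -2.03 ± 0.20 (SE, n = 3 each; limma adjusted p = 0.00134), and its probe sets gave -2.07 and -1.999. Pex19, the import receptor for peroxisomal membrane proteins, had -0.14, -0.27 and -0.12 with MFAP5 and 0.14, 0.30 and 0.23 in Control, a difference of -0.40 ± 0.10 that missed the threshold (SE; limma adjusted p = 0.0706).

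Set side by side, 10 of 19 mitochondrial genes and 1 of 7 peroxisomal enzymes fell, against 2.79% of all genes. The median log2 difference was -0.50 over the mitochondrial genes, -0.21 over the peroxisomal enzymes and -0.08 over all genes. The median centred signals of the mitochondrial genes were -0.28, -0.27 and -0.17 in MFAP5 replicates 1, 2 and 3 and 0.27, 0.32 and 0.36 in Control replicates 1, 2 and 3. Those of the peroxisomal enzymes were -0.06, -0.29 and -0.07 in the MFAP5 arrays and 0.24, 0.13 and 0.02 in the Control arrays. In neither compartment did the medians overlap between the groups. Subtracting the peroxisomal from the mitochondrial median within each array gave -0.21, 0.03 and -0.10 with MFAP5 and 0.02, 0.19 and 0.34 in Control, and these overlapped, since MFAP5 replicate 2 lay just above Control replicate 1. No test of the difference between compartments was made, because the genes had been chosen with results of these data known. Without Control replicate 3 the medians were -0.57 and -0.34, so that the peroxisomal value moved by more than 1.5 times.

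Promoter windows of the 4 genes with the smallest p among those that fell and had a window are shown because these members moved together. RefSeq windows (GRCm38.p6, 250 bases before to 50 after the start) were found for 28 of the 34 genes. Capitals mark AGGTCA, the half-site that PPAR, RXR and other nuclear receptors bind, and GGGCGG, the GC box bound by Sp1, on either strand. The windows are chr7:79743082-79743381 (minus strand) for Pex11a, chr7:140116372-140116671 (minus) for Echs1, chr17:24426433-24426732 (plus) for Eci1 and chr3:153944594-153944893 (minus) for Acadm, each printed 5′ to 3′ along the gene.
Pex11a: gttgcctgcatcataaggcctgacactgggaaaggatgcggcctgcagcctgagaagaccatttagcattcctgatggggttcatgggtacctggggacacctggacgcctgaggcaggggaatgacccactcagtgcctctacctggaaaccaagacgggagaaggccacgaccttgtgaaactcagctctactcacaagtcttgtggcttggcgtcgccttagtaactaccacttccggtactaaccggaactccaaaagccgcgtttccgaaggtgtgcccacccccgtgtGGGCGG
Echs1: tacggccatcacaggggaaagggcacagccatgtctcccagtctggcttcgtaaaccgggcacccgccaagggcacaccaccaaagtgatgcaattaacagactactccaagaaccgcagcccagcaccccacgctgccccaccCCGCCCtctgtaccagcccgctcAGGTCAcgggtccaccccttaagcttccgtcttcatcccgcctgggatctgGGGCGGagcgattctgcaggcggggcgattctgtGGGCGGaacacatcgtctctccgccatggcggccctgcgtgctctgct
Eci1: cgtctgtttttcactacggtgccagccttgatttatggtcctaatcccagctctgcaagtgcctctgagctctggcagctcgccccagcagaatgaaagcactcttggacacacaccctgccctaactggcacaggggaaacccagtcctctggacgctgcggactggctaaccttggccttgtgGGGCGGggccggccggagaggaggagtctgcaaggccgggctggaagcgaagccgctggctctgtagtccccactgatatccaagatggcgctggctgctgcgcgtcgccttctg
Acadm: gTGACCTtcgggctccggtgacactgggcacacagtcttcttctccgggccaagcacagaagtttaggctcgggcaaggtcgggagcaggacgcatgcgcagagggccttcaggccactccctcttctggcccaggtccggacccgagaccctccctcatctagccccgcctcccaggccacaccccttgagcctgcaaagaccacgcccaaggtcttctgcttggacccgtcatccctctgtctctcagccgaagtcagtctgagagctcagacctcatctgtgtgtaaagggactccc
The Echs1 window held 1 AGGTCA and 3 GGGCGG, the Acadm window 1 AGGTCA, and the Eci1 and Pex11a windows 1 GGGCGG each. AGGTCA was in a window of 5 of the 28 genes (Acadm, Acadvl, Cpt1a, Echs1 and Phyh) and in 16.3% of all 32851 windows of the same length. Members are counted as genes and the background as single windows, so the units are unlike. GGGCGG was in a window of 22 of the 28 genes, against 35.7% of all windows. The spaced pair AGGNCANAGGNCA, the direct repeat that PPAR and RXR bind together, which can overlap an AGGTCA, was in none of the 28 genes' windows and in 0.381% of all windows. These are matches of letters in a window and were not compared with the array values.

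Probe sets of 1 gene often disagreed, and where they did the gene mean lay between them. The 32 genes had 57 probe sets, 17 of which fell and 1 rose by limma over all probe sets, against 1.72% and 1.56% of the 45037 tested. Of the 17 genes with several probe sets, 6 had probe sets of opposite sign (Acadl, Acsl3, Acsl4, Cpt1a, Hadhb and Hsd17b4), and 8 had probe sets more than 0.5 apart. The 40 probe sets with the plain suffix _at had a median difference of -0.49 and 15 of them fell. The 10 with the suffix _x_at had a median of -0.10, and 1 of them fell, a probe set of Hadh. Acadl is an example without that suffix: both its probe sets end in _at, and they gave -0.58 and 0.02.

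**Figure D3:**
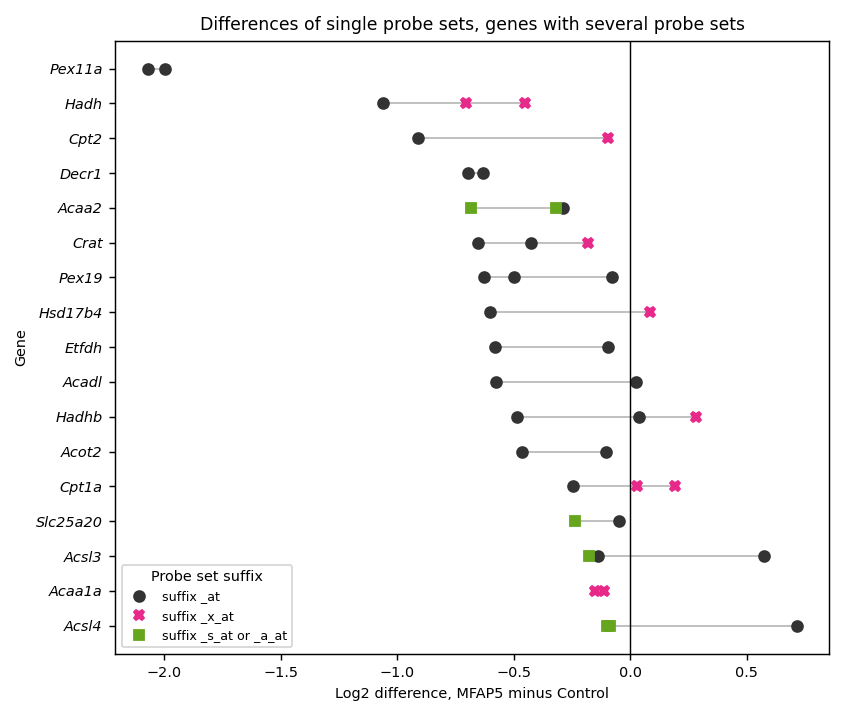
Log2 difference, MFAP5 minus Control, of single probe sets for the 17 genes that had several; each row is a gene, a grey line joins its probe sets and the marker gives the suffix. Probe sets of Pex11a and Decr1 lie close together, while those of Cpt2, Hadhb, Hsd17b4 and Acadl run between values below -0.4 and values near or above 0.

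The count of called genes depended on single arrays. It was 8, 9 and 10 without MFAP5 replicates 1, 2 and 3 and 16, 7 and 3 without Control replicates 1, 2 and 3, while the share of all genes that fell was 1.62%, 1.91%, 2.34%, 10.5%, 1.26% and 1.13% in the same order. Echs1, Eci1 and Pex11a passed whichever array was left out, with log2 differences of -0.98 to -0.91, -1.201 to -1.05 and -2.25 to -1.83. The other 9 missed the threshold without Control replicate 3, 5 of them (Acadvl, Acads, Acaa2, Etfb and Hacl1) also without Control replicate 2. Acads and Acaa2 also missed it without any 1 of the MFAP5 replicates, Etfb without MFAP5 replicate 1 or 2, and Etfa without MFAP5 replicate 1. Without Control replicate 1 all 12 passed, and Cpt2, Hadha, Acot2 and Pex19 passed as well. Hacl1, the one peroxisomal enzyme called, had limma adjusted p = 0.0734 without Control replicate 2 and adjusted p = 0.0832 without Control replicate 3.

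The median of a wider mitochondrial list of 18 measured genes was -0.35, against -0.08 for all genes. Of these 18 genes 5 fell and none rose, against 2.79% and 0.759% of all genes. They were Hibch, a hydrolase of valine breakdown, at -0.85, Pccb, a propionyl-CoA carboxylase subunit, at -0.79, Acot13, a thioesterase, at -0.72, Mcee, the methylmalonyl-CoA epimerase, at -0.67 and Acat1, the mitochondrial acetoacetyl-CoA thiolase, at -0.49, with limma adjusted p between 0.00666 and 0.0308. Without Control replicates 1, 2 and 3 the list had 9, 2 and 1 lower genes, where 10.5%, 1.26% and 1.13% of all genes were lower. Without MFAP5 replicates 1, 2 and 3 it had 2, 3 and 3, where 1.62%, 1.91% and 2.34% were. Of 15 genes that report on mitochondria in general 2 fell, the citrate synthase gene Cs at -0.56 and Tomm40, an import pore subunit, at -0.53, and the median was -0.22. Neither passed without Control replicate 2 or 3 or MFAP5 replicate 1. Tomm40 also missed it without MFAP5 replicate 2 or 3.

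The median of a wider peroxisomal list of 20 measured genes was -0.28, against -0.08 for all genes. On that list 4 genes fell and none rose, against 2.79% and 0.759% of all genes. Beside Acaa1b these were Abcd2, a transporter of very long chain acyl-CoA, at -1.16, Acad11, an acyl-CoA dehydrogenase, at -1.03 and Ech1, a dienoyl-CoA isomerase found in both organelles, at -0.62 (limma adjusted p between 6.40e-04 and 0.0338). Ech1 missed the threshold without MFAP5 replicate 1 or 2 or Control replicate 2 or 3. Catalase, encoded by Cat, had 0.14, 0.09 and -0.07 with MFAP5 and 1.16, -0.47 and -0.47 in Control, so that Control replicate 1 lay far above the other arrays, and its difference was -0.02 (limma adjusted p = 0.986). This gene is named because its values were seen to split the Control arrays. Of 11 measured genes of peroxisome biogenesis limma called none. At an unadjusted p under 0.05 in limma 9 were lower and 1 higher, against 14.4% and 5.33% of all genes. Without Control replicate 1 limma called 8 lower, where 10.5% of all genes were. The lowest p on that list was that of Pex3, at -0.40 (limma adjusted p = 0.0526).

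Of 16 measured regulators of the pathway 3 fell and none rose: Pparg, the nuclear receptor of fat cells, at -2.45 ± 0.25, Lpin1, a phosphatidate phosphatase and coactivator, at -1.23 ± 0.13, and Ppargc1a, a coactivator of mitochondrial biogenesis, at -0.91 ± 0.11 (SE, n = 3 each; limma adjusted p between 0.00146 and 0.00247). Over all genes 2.79% fell and 0.759% rose. Without Control replicate 1 the regulator list had 5 lower genes and 1 higher, where 1914 of all 18193 genes were lower and 760 higher. Ppara, the nuclear receptor best known for inducing beta oxidation, had -0.12, -0.13 and -0.23 with MFAP5 and 0.03, 0.20 and 0.22 in Control. Its groups lay apart, and its difference of -0.31 missed the threshold (limma adjusted p = 0.143). Of 10 PPAR target genes outside oxidation 3 fell, the fatty acid carriers Fabp4 and Fabp5 at -3.31 and -0.87 and the fatty acid receptor Cd36 at -1.52. None of these passed when each array was centred on its median or when the spike-in signal was a covariate, and none without Control replicate 2 or 3. The list had 1, 1 and 3 lower genes without MFAP5 replicates 1, 2 and 3, where 1.62%, 1.91% and 2.34% of all genes were lower. With quantile normalization it had 2, where 2.93% of all genes were lower. Without Control replicate 1 it had 2, of which Fabp5 was 1, where 10.5% of all genes were lower. For ketone bodies, Oxct1 and Bdh1 had differences of -0.19 and -0.10 (limma adjusted p = 0.598 and 0.684).

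**Figure D4:**
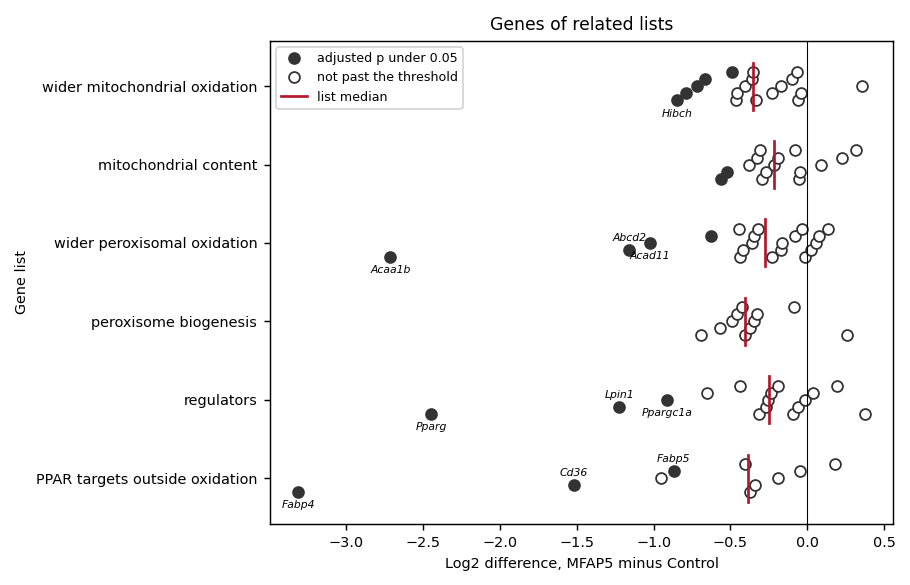
Log2 difference, MFAP5 minus Control, of the measured genes of 6 related lists; filled points passed an adjusted p under 0.05, red bars are list medians, and called genes below -0.8 are named. Pparg at -2.45, Acaa1b at -2.71 and Fabp4 at -3.31 lie far to the left of their list medians.

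Markers of other cell types moved in the same arrays. Of 9 measured adipocyte markers 8 fell, against 2.79% of all genes, and without Control replicate 2 or 3 the count was 6. The median difference of these markers was -3.65, against -0.08 for all genes. Their medians were -2.76, -2.31 and -1.11 in MFAP5 replicates 1, 2 and 3 and 1.17, 1.42 and 1.35 in Control replicates 1, 2 and 3. Of 8 brown adipocyte markers 4 fell, namely Cox8b, a heart and muscle type cytochrome oxidase subunit, at -2.81, Cox7a1 at -1.61, Cidea at -1.53 and Ucp1, the uncoupling protein of brown fat, at -1.29, the last of which missed the threshold without Control replicate 2 or 3. The medians of all 8 brown adipocyte markers were -0.25, -0.35 and -0.55 with MFAP5 and 0.44, 0.54 and 0.58 in Control. Of the 8 brown adipocyte markers 6 were lower and 1 higher at an unadjusted p under 0.05 in limma, against 14.4% and 5.33% of all genes. The higher one was Dio2, at 0.52 (limma adjusted p = 0.210), with all MFAP5 values above all Control values. Zic1, at 0.01, overlapped between the groups. Within the MFAP5 group the lowest of the 3 values lay in replicate 1 for 13 of the 32 beta oxidation genes, in replicate 2 for 13 and in replicate 3 for 6. For the 7 peroxisomal enzymes these counts were 1, 3 and 3. The same count was not made over all genes. The part of these markers' cells in the lower beta oxidation signals was not tested.

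Of 12 endothelial markers limma called none. At an unadjusted p under 0.05 in limma 3 were lower and none higher, against 14.4% and 5.33% of all genes. The medians of these markers were -0.08, -0.17 and -0.03 with MFAP5 and -0.05, 0.28 and 0.10 in Control. The median difference of these was -0.18, against -0.08 for all genes. With an array left out it lay between -0.24, without Control replicate 1, and -0.11, without Control replicate 2. The medians of all genes in those settings were -0.11 and -0.05. Tek, an angiopoietin receptor, had the lowest p, at -0.75 (limma adjusted p = 0.0592). Without Control replicate 1 limma called 2 endothelial, 1 muscle, 1 macrophage and 3 hepatocyte markers lower, in a setting where 10.5% of all genes were lower. Of 14 muscle markers none was called and 5 were lower at an unadjusted p under 0.05, against 14.4% of all genes, with a median of -0.19. Of 8 macrophage markers none was called and 1 was lower at an unadjusted p under 0.05, against the same 14.4%, with a median of 0.02. Of 6 hepatocyte markers 1 fell, against 2.79% of all genes. It was Cyp2e1, a cytochrome P450 that adipose tissue also expresses, at -1.96 (limma adjusted p = 4.07e-04). Because each probe set was centred, no marker can be read as present or absent, so the labelled cell type could not be checked by level. The spike-in transcripts added at hybridization had mean signals of -0.04, -0.01 and -0.01 in the MFAP5 arrays and -0.32, 0.64 and 0.65 in the Control arrays. With this level as a covariate 11 genes passed, Acaa2 and Etfb no longer among them and Cpt2 added, and the medians were -0.51 for mitochondrial genes and -0.33 for peroxisomal enzymes.

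**Figure D5:**
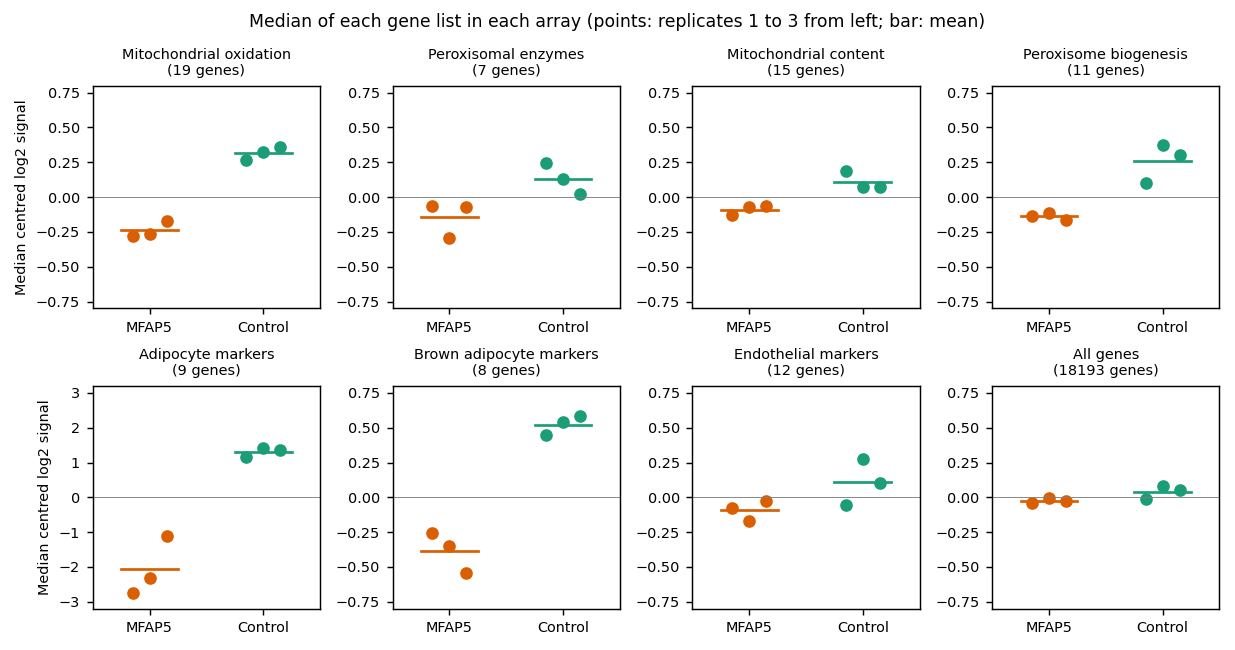
Median centred log2 signal of 8 gene lists in each array, MFAP5 left and Control right; points are replicates 1 to 3 from the left, bars are group means, and the adipocyte panel has a wider axis. The adipocyte medians are between -2.76 and -1.11 with MFAP5 and between 1.17 and 1.42 in Control, and the mitochondrial medians are between -0.28 and -0.17 with MFAP5 and between 0.27 and 0.36 in Control.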

How the data were processed

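Biotin-labelled cRNA made from total RNA was hybridized to single-colour arrays, per the labels' protocols. The submitters' processing notes name MAS5. Its scaling target, and what was done to its signals before deposit, are not stated there. The deposited values were taken as log2 signals. Read from the file, the median over the 6 arrays was 0 for each probe set (to 5e-07), and the largest spread of a probe set was 8.24. If they are natural logs, the printed log2 differences and folds understate the changes. A higher value was read as more signal, which no source states.

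The 64 control probe sets were left out, leaving 45037, of which 34945 had 1 gene symbol in the platform annotation. A gene was the mean of those probe sets. No filter on low signals was possible. Groups were compared with limma 3.58.1 in R 4.3.3 (a moderated two-sided statistic from eBayes, with no variance trend, called at an adjusted p under 0.05). The procedure was tested on data with known changes. Members, lists and tests were chosen with earlier results of these data known. All 34 members are accounted for. Array values are given in full for members that fell and for the member of smallest p in each role, and up to 4 genes of smallest p are named from each list. Array values of Hadha, Cpt1a, Ehhadh, Hsd17b4, Phyh, Pex19 and Ppara, and the genes Acot13, Ppara, Cat, Dio2 and Zic1, were added after values were seen. The number of arrays limits the precision. Alternatives were quantile normalization, median centring, another probe set rule, a variance trend, an unmoderated statistic, array weights, a replicate block, the spike-in covariate and leaving out each array.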

Additional observations from a re-analysis of the deposited data

How the results depend on the processing

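The counts of genes that fell were 12 of all, 10 mitochondrial and 1 peroxisomal enzyme. They stayed within 1.5 times of this with quantile normalization, median centring, the probe set of largest SD, without probe sets named _s_at, _x_at or _a_at, with a variance trend, array weights or the spike-in covariate. With array weights 17 genes fell, but so did 15.8% of all genes. With the unmoderated statistic the counts were 0, 0 and 0, but only 1 of 18193 genes was called. At an unadjusted p under 0.05 in that statistic there were 19 of the 32 genes and 2815 of all. In the main test, also requiring a log2 difference of at least 1 left 2 of the 12 genes. The same count was not made over all genes. Leaving out 1 array gave counts of 3 to 16, 2 to 13 and 0 to 1, mitochondrial medians of -0.58 to -0.49 and peroxisomal medians of -0.34 to -0.16. The mitochondrial median of -0.50 was -0.65 with the probe set of largest SD, -0.61 without probe sets named _s_at, _x_at or _a_at and -0.56 without Crat. With the replicate number as a block the counts were 12, 10 and 1, with Acaa2 lost (adjusted p = 0.0705) and Cpt2 gained (adjusted p = 0.0426). Same-numbered arrays had deviations correlated at 0.18, 0.056 and 0.072, for each MFAP5 array the highest value with any Control array. Control replicate 2, however, correlated slightly better with MFAP5 replicate 3 (0.0581) than with MFAP5 replicate 2 (0.0555). The main test did not pair the arrays, and the counts with the block are those just given.

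Signs turned only among genes that passed under none of the alternatives run. Acsl4 was at -0.054 with the spike-in covariate. Acsl5 was at -0.052 with array weights and between -0.0544 and 0.0535 with an array left out. Cpt1a was at 0.0245 with median centring, 0.19 with the probe set of largest SD, 0.0855 with array weights and between -0.11 and 0.15 with an array left out. Hadhb was at 0.28 with the probe set of largest SD, 0.0069 with array weights and between -0.14 and 0.057 with an array left out. Acot1 was at 0.0545 with quantile normalization, 0.030 with median centring, 0.044 with the spike-in covariate and between -0.075 and 0.076 with an array left out. Hsd17b4 was at 0.086 with the probe set of largest SD. The cause was not tested. Centring removed signal levels, so nothing can be said of signal over background.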
